A study of Mus musculus with 6 samples.

Results

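Expression of 10 genes linked to PPARγ-driven fat storage in hepatocytes was described in mouse liver: the nuclear receptor gene Pparg, genes that take up and carry fatty acids (Cd36, Vldlr, Lpl, Fabp4), genes that build and coat fat droplets (Mogat1, Cidea, Cidec, Plin4), and Cfd, which encodes adipsin. They were selected on their TPM in these same 6 libraries, the difference between labels and the spread within each label being already known, and both are therefore given as a description without a test. Each was taken from the deposited table by its Ensembl identifier, and all 10 were found, each on a single row, among 54600 rows. The table gives TPM, a level per transcript length that adds up to one fixed sum per library, so levels can be set side by side between genes but sequencing depth is unknown. A gene was tested when it reached 1 TPM in at least 3 of the 6 libraries, which 8 of the 10 did and Vldlr and Cidea did not, as did 11440 genes in all.

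All 6 libraries came from livers of mice kept on a high-fat diet for 16 weeks. In 3 of them the mice were labelled wild type (WT), and in the other 3 they were labelled as lacking HIF-2α in hepatocytes (KO), with the libraries numbered 1 to 3 under each label. The labels give neither the line that deletes the gene, nor age or sex, nor whether each library is a separate animal, and they do not say what a shared number means. Any p-value here measures the spread between these samples, which may be technical. Epas1, the gene of HIF-2α, was at 23.8, 26.0 and 21.0 TPM in WT libraries 1 to 3 and at 26.6, 35.1 and 29.4 TPM in the libraries labelled KO. On the deposited scale the targeted gene was thus higher in every library labelled KO (+0.34 ± 0.15 SE on the log2(TPM + 1) scale, limma adjusted p = 0.993, n = 3 each), and the genotype labels could not be checked from it. For this gene alone the unadjusted limma p was 0.050, or 0.0171 (adjusted 0.724) with the library number as a block. An exact two-sided permutation of the libraries gave p = 0.1, the lowest that test can give with these group sizes. After median-ratio scaling the labels overlapped, with KO library 1 at 25.1 below WT library 2 at 26.5, and the difference was +0.24. Hepatocyte genes such as Alb, Ttr and Hnf4a were present in every library. In whole liver, fewer cells of a type and less RNA per cell cannot be told apart.

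PPARγ is a nuclear receptor that binds DNA with the retinoid X receptors and drives fat storage in adipocytes. In lean mouse liver it is a minor receptor beside PPARα, and in the fatty liver of mice hepatocytes switch on Pparg with a group of otherwise adipocyte-typical genes for fatty acid uptake, acylglycerol synthesis and droplet coating. Adipsin, complement factor D, is a serine protease that cleaves factor B in the alternative complement pathway and is made mainly by adipocytes.

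RefSeq promoter windows (build GRCm38.p6, the same build as mm10) of 300 bases, from 250 before to 50 after an annotated start, matched 7 of the 10 genes with 11 windows. The bases before the start of Cfd and Plin4 are shown because these were the members whose levels followed each other most closely. Matches in Cidea are not reported here. Cidea left aside, short stretches of Cd36 and Mogat1 are shown because they held the closest matches to AGGTCANAGGTCA, searched on both strands. PPAR and retinoid X receptor pairs bind this direct repeat. Capitals mark the match, and Cfd and Plin4 have none because no stretch of theirs came within 2 of the 12 fixed letters.
Cfd, chr10:79890603-79890852, plus strand: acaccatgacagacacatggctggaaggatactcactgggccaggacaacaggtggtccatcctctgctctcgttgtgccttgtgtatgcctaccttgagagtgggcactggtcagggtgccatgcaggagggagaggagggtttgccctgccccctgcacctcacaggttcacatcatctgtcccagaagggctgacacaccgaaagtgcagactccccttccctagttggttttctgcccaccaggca
Plin4, chr17:56109804-56110032, minus strand: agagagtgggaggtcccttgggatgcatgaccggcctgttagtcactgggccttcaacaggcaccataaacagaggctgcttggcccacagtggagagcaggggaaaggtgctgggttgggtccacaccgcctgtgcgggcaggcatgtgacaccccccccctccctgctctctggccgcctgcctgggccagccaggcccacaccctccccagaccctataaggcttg
Cd36, chr5:17835939-17835967, minus strand: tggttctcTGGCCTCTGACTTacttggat
Mogat1, chr1:78511001-78511029, plus strand: cagaattcAGGTAAAAAGTCAggctggtg
The Cd36 match lay on the reverse strand, 63 to 51 bases before that start, and the Mogat1 match on the forward strand, 51 to 39 bases before the RefSeq start. The stretch shown for Mogat1 overlaps a Mogat1 exon of the GENCODE annotation, in which the gene starts upstream of it, at 78510991. Each differed from the repeat at 2 letters. A match that close was present in 3.86% of all 32851 windows of this length, and an exact copy in 0.0396%. The single unit AGGTCA was held by 16.3% of windows. Cidea again left aside, it was found near 2 of the Pparg starts and once in the Cd36 window. These matches describe letters in these windows, Cd36, Mogat1 and Pparg have further starts, and the TPM values are per gene and do not show which start was used.

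Pparg varied more within each label than between them. It was at 11.2, 12.2 and 2.51 TPM in WT libraries 1, 2 and 3 and at 8.23, 7.30 and 2.73 TPM in the libraries labelled KO (ENSMUSG00000000440, mm10 chromosome 6, 115360951 to 115490399, plus strand). Both libraries numbered 3 were the lowest, the labels overlapped, and within a label the highest library stood 4.85-fold (WT) and 3.02-fold (KO) above the lowest. WT averaged 8.63 ± 5.33 TPM and KO 6.09 ± 2.94 TPM (SD, 3 libraries each, as in all values below), which differ by -0.33 ± 0.56 SE. Differences are of log2(TPM + 1), KO minus WT, with the standard error from limma, and this scale understates changes of low genes. Ppara, the main PPAR of hepatocytes, was higher than Pparg in each library, by 4.72- to 19.1-fold, with a lowest value of 28.1, a median of 63.9 and a highest of 83.1 TPM. An antisense gene, Gm44079, overlaps Pparg, and no source used here says whether reads were counted by strand.

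The dimer partners and coregulators of PPARs did not pass the test. Of 15 listed genes, 13 were tested and none passed in either direction, with a median difference of +0.10 beside +0.09 over all tested genes. Rxra, the main retinoid X receptor of liver, was at 99.2 ± 12.1 TPM (WT) and 105.7 ± 3.53 TPM (KO), and Ncor1, a corepressor, at 19.4 ± 2.15 and 23.2 ± 2.95 TPM. Among 14 listed regulators upstream of Pparg, 10 were tested, none passed, and the median difference was +0.13. Cebpa, the C/EBP factor that works with PPARγ in fat cells, was at 151 ± 19.2 and 167 ± 23.8 TPM. Srebf1, the lipogenic factor gene, was at 92.8 ± 31.7 and 93.1 ± 55.2 TPM, and Klf15 at 90.1 ± 4.76 and 88.9 ± 19.6 TPM. Few genes of these lists had their lowest values in both libraries numbered 3, as Pparg had, namely 2 of the 13 receptors and partners (Ppara and Rxrg, 15.4%) and 1 of the 10 regulators (Srebf1, 10%), beside 26.4% of all tested genes.

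**Figure D1:**
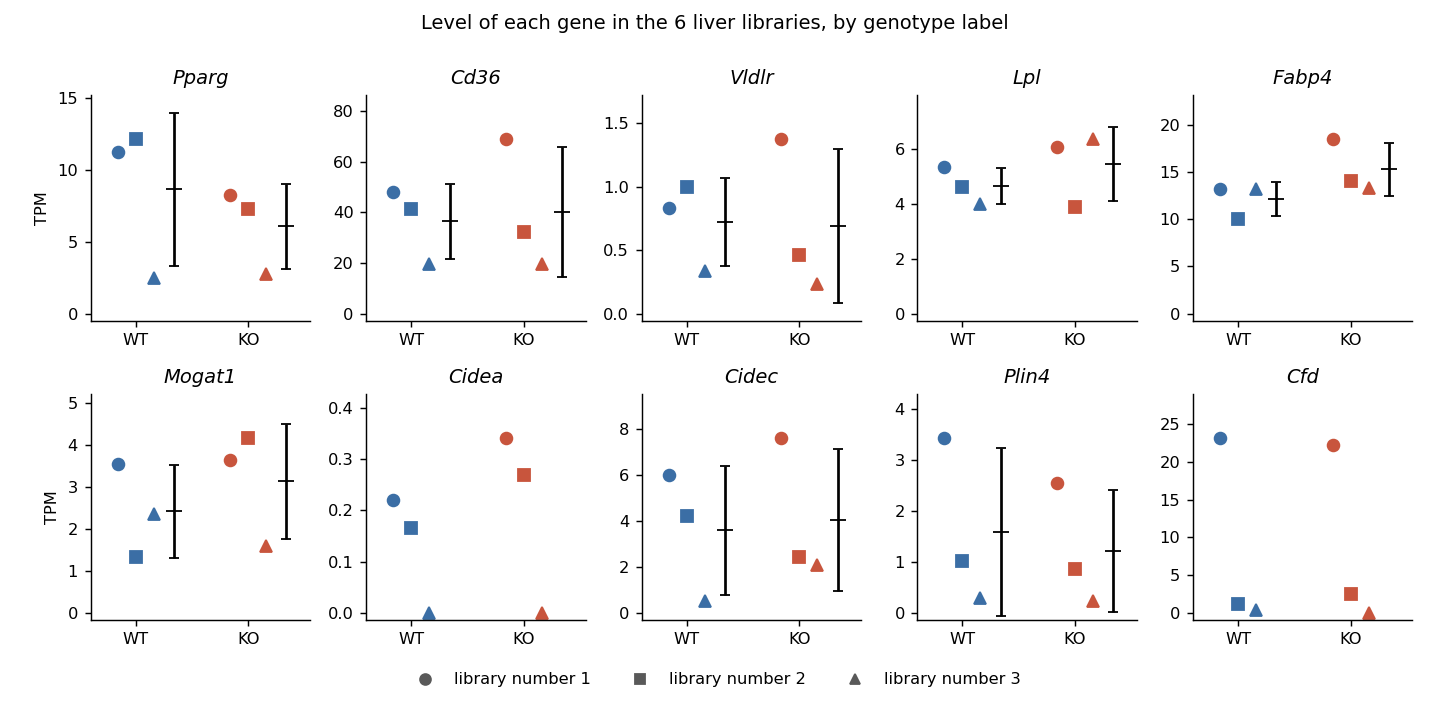
TPM of each gene (vertical axes, linear, one scale per gene) in the 3 WT and 3 KO libraries, with symbols for the library number; bars show the mean and SD per label and are left out for Cidea and Cfd, which are listed at 0 in some libraries. Cfd stood at 23.2 and 22.3 TPM in the libraries numbered 1 and at 2.47 TPM or less in the others, while only Fabp4 had all KO values above all WT values, on the deposited scale and not after median-ratio scaling.

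Among the uptake genes, Cd36 was the most abundant of the 10 and followed the library number. Cd36, the scavenger receptor that brings long-chain fatty acids into cells, was at 48.1, 41.5 and 19.6 TPM in WT libraries 1 to 3 and at 69.0, 32.0 and 19.6 TPM in the KO libraries (MSTRG.2724|ENSMUSG00000002944, chromosome 5, 17781690 to 17888801, minus strand). Libraries numbered 1 were the highest and those numbered 3 the lowest under both labels. Their means, 36.4 ± 14.9 and 40.2 ± 25.7 TPM, differed by +0.05 ± 0.48 SE, a sign that each of the other scalings tried turned. Vldlr, the receptor that takes up triglyceride-rich VLDL and rises in fatty mouse liver, was at 0.834, 0.996 and 0.333 TPM (WT) and 1.38, 0.459 and 0.237 TPM (KO). It reached 1 TPM in only 1 library and was not tested.

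Lpl and Fabp4 were steadier than Cd36. Lpl, the lipase that frees fatty acids from circulating triglyceride and is low in normal adult hepatocytes, was at 5.34, 4.604 and 4.002 TPM (WT) and 6.08, 3.89 and 6.37 TPM (KO). Its labels overlapped, and the difference was +0.17 ± 0.19 SE (chromosome 8, 68880491 to 68907448). Fabp4, the fatty acid binding protein of adipocytes, macrophages and capillary endothelium, was at 13.2, 10.1 and 13.2 TPM in the WT libraries and at 18.5, 14.0 and 13.4 TPM in the KO libraries (chromosome 3, 10204088 to 10208576). It was the only member whose labels did not overlap, against 9.08% of all tested genes. Its difference was +0.31 ± 0.17 SE, and after median-ratio scaling of the libraries it was +0.20 and the labels overlapped. Fabp1, the abundant hepatocyte counterpart, exceeded Fabp4 by 457-fold to 802-fold.

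Other genes of uptake and binding did not pass the test either. Of 13 listed, all were tested, 9 had a difference above 0 (6 after median-ratio scaling) and the median was +0.06. Fabp1 was at 7604 ± 883 TPM (WT) and 8624 ± 2328 TPM (KO), Slc27a2, a very-long-chain fatty acid transport and activation protein, at 596 ± 101 and 691 ± 62.5 TPM, and Slc27a5, the bile acid and fatty acid CoA ligase, at 372 ± 68.4 and 371 ± 73.4 TPM. For lipoprotein lipase control all 12 listed genes were tested, none passed, and the median difference was +0.07. Apoc1 was at 9653 ± 1336 and 10082 ± 1495 TPM, Apoc3, an inhibitor of triglyceride clearance, at 3605 ± 397 and 3503 ± 110 TPM, and Apoa5, which promotes it, at 920 ± 243 and 893 ± 301 TPM.

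Within WT, the droplet genes Cidec and Plin4 spanned the widest fold ranges after Cfd among the genes above 0 in every WT library. Cidea, listed at 0 in WT library 3, has no fold. Cidec, which fuses lipid droplets and is known as Fsp27 in mice, was at 6.01, 4.20 and 0.528 TPM in WT libraries 1 to 3 and at 7.60, 2.45 and 2.07 TPM in the KO libraries (ENSMUSG00000030278, chromosome 6, 113424634 to 113435760, minus strand). It was highest in both libraries numbered 1 and lowest in both numbered 3, an 11.4-fold range within WT and 3.66-fold within KO, and the label means differed by +0.24 ± 0.62 SE. Plin4, a perilipin that coats nascent droplets, was at 3.43, 1.02 and 0.283 TPM (WT) and 2.55, 0.863 and 0.223 TPM (KO) (chromosome 17, 56100591 to 56109803). That was a 12.1-fold range within WT and 11.4-fold within KO, in the same order of library numbers under both labels, with a difference of -0.17 ± 0.53 SE between labels. Hdgfl2 on the opposite strand overlaps Plin4 in the annotation, so without a stated strand setting its reads cannot be told apart with certainty.

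Cidea and Mogat1 were low. Cidea, the CIDE protein of brown fat that appears in steatotic mouse hepatocytes, was at 0.220 and 0.166 TPM in WT libraries 1 and 2 and at 0.341 and 0.268 TPM in KO libraries 1 and 2. It was listed at 0 in both libraries numbered 3, so its highest value was 0.341 TPM. Mogat1, which makes diacylglycerol from monoacylglycerol and is a PPARγ target in fatty mouse liver, was at 3.55, 1.34 and 2.37 TPM (WT) and 3.65, 4.17 and 1.58 TPM (KO). Its order differed between the labels, since library 2 was the lowest of the WT and the highest of the KO libraries, and the difference was +0.26 ± 0.33 SE. BC035947 on the opposite strand overlaps Mogat1.

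The general hepatocyte genes of these steps were far more abundant. Plin2, the droplet coat protein of hepatocytes, exceeded Plin4 in every library, by 84.8-fold to 796-fold, and Cideb, the CIDE protein of liver, exceeded Cidec by 34.1-fold to 418-fold. Plin2 was at 246 ± 50.8 TPM (WT) and 248 ± 92.8 TPM (KO), Cideb at 235 ± 15.8 and 239 ± 22.7 TPM, and Hsd17b13, a droplet enzyme, at 297 ± 51.5 and 376 ± 89.6 TPM. Of 12 listed droplet genes, 10 were tested and none passed, with a median difference of +0.17. Of 12 listed acylation genes, 11 were tested and none passed, with a median of -0.04. Dgat2, which makes triglyceride from diacylglycerol, was at 253 ± 35.5 and 263 ± 39.4 TPM, Agpat2 at 162 ± 34.9 and 144 ± 29.0 TPM, and Gpam at 118 ± 47.4 and 90.6 ± 37.4 TPM. Dgat2 stood 70.6-fold to 207-fold above Mogat1.

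On the log2(TPM + 1) scale, Cfd had the largest SD within each label of the 10 genes (2.22 in WT and 2.29 in KO). Adipsin mRNA was at 23.2, 1.15 and 0.385 TPM in WT libraries 1, 2 and 3, and at 22.3 and 2.47 TPM in KO libraries 1 and 2, and it was listed at 0 in KO library 3 (ENSMUSG00000061780, chromosome 10, 79890853 to 79892655, plus strand). Both libraries numbered 1 were high, the other 4 were low, and the labels overlapped almost completely, with a difference of +0.05 ± 1.36 SE. The lower of the libraries numbered 1 stood 9.003-fold above the highest of the other 4. By that ratio Cfd ranked 1 of 11440 tested genes, ahead of the acute phase gene Saa3 at 2.71-fold, and Plin4 ranked 3 at 2.49-fold. The WT range was 60.3-fold, and no fold is given for KO because of the listed 0.

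Defining markers of adipocytes were at or near 0 in the libraries with high Cfd. Adipoq, Lep, Retn, Adig and Slc7a10 were listed at 0 in all 6 libraries, and Plin1, the perilipin of adipocytes, was at 0.018 TPM in WT library 1 and listed at 0 in the other 5. Of 15 listed names of adipocyte markers, 14 were matched (the name Tusc5 was not) and 4 reached the filter, namely Car3, Pck1, Lipe and Cd300lg. Without Car3, Pck1 and Lipe, which hepatocytes also express, the other 11 matched markers summed to 8.26 to 9.74 TPM (WT) and 8.89 to 11.03 TPM (KO), most of it Cd300lg. With them, the sums were 3561, 3278 and 2882 TPM in WT libraries 1 to 3 and 3726, 2756 and 3254 TPM in the KO libraries. That sum was highest in library 1 under both labels, as was Car3, and its part in the Cfd values was not tested. Of the brown fat markers, Ucp1, Dio2 and Otop1 were listed at 0 in all libraries, and the 8 summed to 96.3 to 179 TPM (WT) and 29.6 to 253 TPM (KO), nearly all of it Elovl3, which hepatocytes express.

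The sum of myeloid granule markers moved in part with Cfd, whose gene lies beside those of neutrophil proteases and which monocytes also express. The 10 markers summed to 12.8, 3.499 and 2.63 TPM in WT libraries 1 to 3 and to 8.41, 7.22 and 6.91 TPM in the KO libraries. The sum was highest in library 1 under both labels, but the KO libraries differed little in it, whereas Cfd differed widely among them. Of 2 tested, S100a8 and S100a9, 0 were highest in both libraries numbered 1, beside 14.3% of all tested genes. Among the KO libraries both were highest in library 3, at 1.53 and 3.90 TPM, where Cfd was listed at 0. Of the markers under the filter, Elane, Ngp, Ltf and Retnlg had their highest values in both libraries numbered 1, and Prtn3, Mpo, Ctsg and Camp did not. These were low values. Retnlg was at 2.09 and 1.22 TPM in WT and KO library 1, and the granule protease gene Elane at 0.453 TPM or less in every library. The part of the granule markers in the Cfd values was not tested. Markers of endothelium, which expresses Cd36 and Fabp4, were all detected and summed to 169 to 189 TPM (WT) and 175 to 210 TPM (KO). Of 15 tested, 14 had a difference between labels above 0 (7 after median-ratio scaling), with a median of +0.09, as over all tested genes. None passed the test, and 2 (Stab1 and Lyve1) had an unadjusted limma p below 0.05. The part of endothelial markers in the members' differences was not tested. Kupffer cell and macrophage markers, from cells that express Lpl, Cd36 and Fabp4, were likewise all detected and summed to 466, 423 and 326 TPM in the WT libraries and 444, 443 and 426 TPM in the KO libraries. The order of these sums was that of Cd36 and Cfd, by library number under both labels, although the KO sums lay close together. Of 13 tested, 4 (Clec4f, C1qb, Marco and Cd5l, 30.8%) were highest in both libraries numbered 1, beside 14.3% of all tested genes, and 1 after median-ratio scaling. Their part in the Cd36 and Cfd values was not tested. Stellate cell and fibroblast markers summed to 209 to 251 and 244 to 303 TPM. All 12 tested had a difference between labels above 0 (10 after median-ratio scaling), with a median of +0.18 beside +0.09 over all tested genes. None passed the test, and 5 (Col1a2, Col3a1, Lum, Acta2 and Tagln) had an unadjusted limma p below 0.05, as 3.15% of all tested genes had. Their part in the members' differences was not tested. Muscle markers summed to 2.10 to 3.81 and 0.787 to 1.75 TPM, and hepatocyte markers to 57980 to 67385 and 66504 to 82229 TPM.

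Several other components of the alternative complement pathway were at high levels in these livers, and others were not. Cfp was at 14.4 ± 2.57 TPM (WT) and 14.5 ± 1.05 TPM (KO) and Cd55 at 7.51 ± 1.84 and 7.91 ± 2.95 TPM. C3ar1, C5ar1 and Cd46 were under the filter. Cfb, the substrate of adipsin, lay between 277 and 385 TPM, with a median of 337, and exceeded Cfd by 14.2-fold to 719-fold in the 5 libraries in which Cfd was above 0. C3, the central component, was at 893 ± 153 TPM (WT) and 934 ± 166 TPM (KO), Cfhr2, a factor H relative, at 521 ± 39.97 and 541 ± 41.1 TPM, and Cfi, which inactivates C3b, at 307 ± 33.4 and 369 ± 29.1 TPM. Of 13 listed genes, 10 were tested and all 10 had a difference above 0, with a median of +0.12, but none passed the test, and median-ratio scaling left 5 above 0 and 5 below. None of the 10 was highest in both libraries numbered 1, where 14.3% of all tested genes were.

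**Figure D2:**
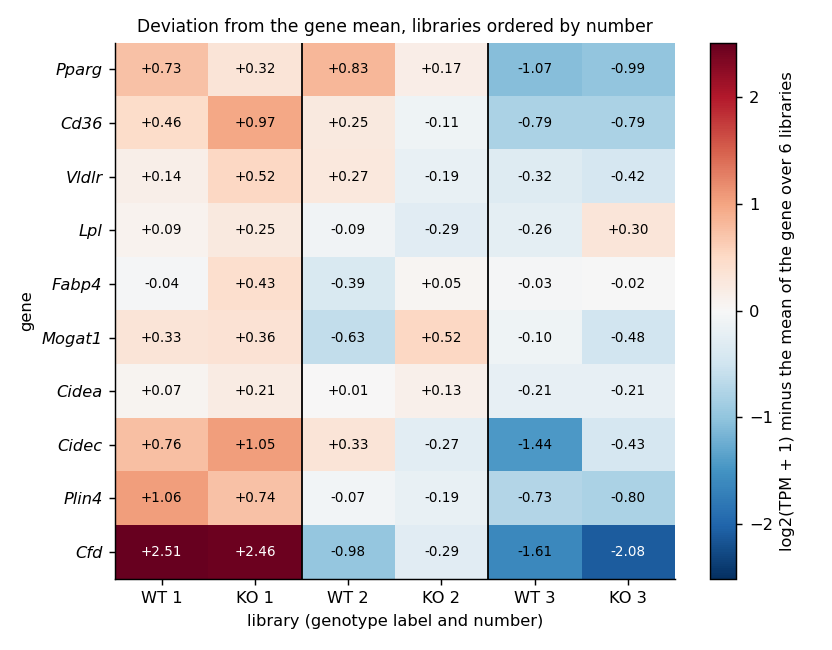
Colour and printed values give log2(TPM + 1) of each gene minus its mean over the 6 libraries, with libraries ordered by number and vertical lines between numbers. Cfd was at +2.51 and +2.46 in the libraries numbered 1, and 7 of the 10 genes had their lowest values in the libraries numbered 3.

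Across the members, the library number separated values that the label did not. In 7 of the 10 genes (Pparg, Cd36, Vldlr, Cidea, Cidec, Plin4 and Cfd) the lowest values were those of both libraries numbered 3, and in 4 (Cd36, Cidec, Plin4 and Cfd) the highest were those of both numbered 1. Over all tested genes these shares were 26.4% and 14.3%. Median-ratio scaling left the members' counts at 7 and 4 and brought the shares over all tested genes to 11.4% and 7.67%. The within-label SD of log2(TPM + 1) ran from 0.19 (Cidea) to 2.25 (Cfd), beside a median of 0.21 over tested genes. It exceeded the 90th percentile of tested genes, 0.46, in 6 of the 10. Since the spread within labels was known when the members were chosen, these counts describe them and support nothing further.

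Genes of the same pathways that were not members shared the low values of libraries numbered 3 more often than all tested genes, but not the high values of those numbered 1. Of 97 distinct pathway genes tested, 38 (39.2%) had their lowest values in both libraries numbered 3, beside 26.4% of all tested genes. Their highest values were in both numbered 1 for 15 (15.5%), near the 14.3% of all tested genes. After median-ratio scaling these were 24 (24.7%, beside 11.4%) and 8 (8.25%, beside 7.67%). Among 25 tested genes described as responsive to PPARγ, 14 (56%) had their lowest values in both libraries numbered 3, and 8 (32%) after scaling. Cyp4a14, a fatty acid hydroxylase and PPARα target, was at 61.0, 59.2 and 2.57 TPM (WT) and 175, 31.0 and 5.63 TPM (KO). Fitm1, which promotes droplet formation, was at 33.8, 28.2 and 19.0 TPM and at 34.4, 21.3 and 8.03 TPM. Both were chosen for mention after their values were seen, as genes that share the order of Cd36. In this list none passed the test between labels and the median difference was -0.01. Its most abundant genes were Scd1, the stearoyl-CoA desaturase, at 2448 ± 2606 and 1603 ± 1575 TPM, Dbi, the acyl-CoA binding protein, at 1343 ± 130 and 1345 ± 243 TPM, and Pck1 at 908 ± 83.5 and 987 ± 111 TPM.

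Levels of several members followed each other over the 6 libraries. Of 45 pairs, 27 had a Pearson r of log2(TPM + 1) above 0.5, and the median r was 0.68. Plin4 and Cfd were the closest, with r = 0.97 and Spearman rho = 0.94, and r = 0.86 without both libraries numbered 1, the farthest from the median of Plin4. For Cd36 and Cidec r was 0.93 and rho 1, with r = 0.91 without the libraries farthest from the median. Pparg and Cd36 had r = 0.84 and rho = 0.77, but r = 0.07 without both libraries numbered 3, so that relation rested on those libraries. Over all 6 libraries Lpl followed the other members least, with r from -0.16 to 0.53. Without KO libraries 2 and 3, the farthest from the median of Lpl, its r with Fabp4, Mogat1, Cidea, Cidec, Plin4 and Cfd was 0.67 to 0.97. Its lower r with these genes thus rested on those libraries. Fabp4 had r from -0.14 to 0.68. The 6 points share their preparation and the fixed TPM total, and each r is a description. No share over pairs of all tested genes stands beside the count of member pairs, so nothing is read from that count.

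Genes outside the group that were most like Pparg, Cd36 and Cfd varied less than they did. Among 6657 candidates averaging 5 TPM or more, the closest to Pparg over the 6 libraries were Tmem106b, Actr3, Stk40, Ttpa and Zmpste24, with r from 0.983 to 0.997. Tmem106b was at 63.6, 62.8 and 43.6 TPM (WT) and 56.9, 56.7 and 44.0 TPM (KO). The closest to Cd36 were R3hdm4, Msra, Ccdc107, Agmat and Lclat1 (r from 0.989 to 0.999), and R3hdm4 was at 20.5, 19.8 and 16.98 TPM and at 22.1, 18.8 and 16.8 TPM. Nploc4, Dctn2, Cbr4, Adora1 and Pcnx were closest to Cfd (r from 0.98 to 0.99). Adora1, an adenosine receptor gene, was at 9.77, 4.003 and 3.33 TPM (WT) and 11.7, 4.998 and 2.17 TPM (KO), the widest range of these 5.

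**Figure D3:**
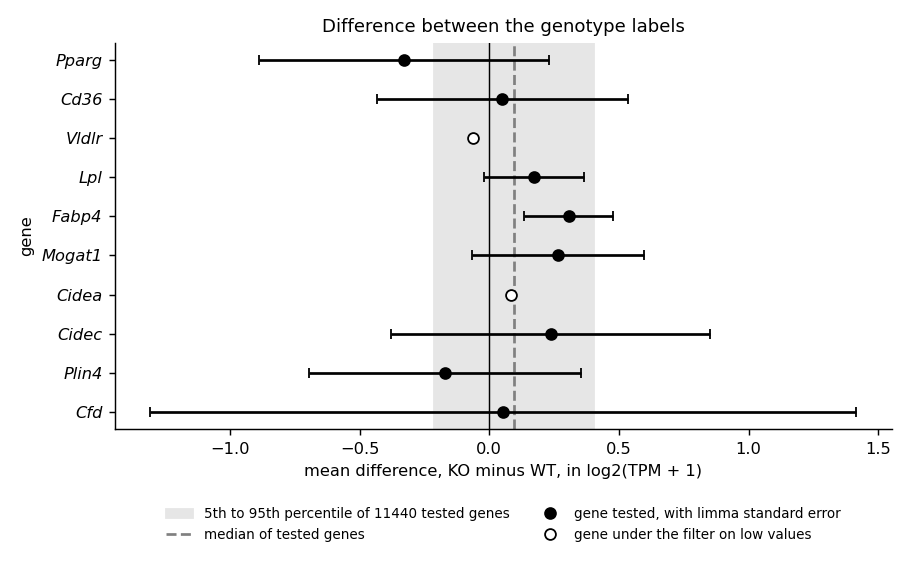
Points give the mean difference KO minus WT in log2(TPM + 1) for each gene, bars the limma standard error, and open points the 2 genes under the filter on low values. The grey band spans the 5th to 95th percentile of 11440 tested genes (-0.21 to +0.40), the dashed line is their median, and Pparg alone lies outside the band.

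Set against each other, the labels showed no called difference in any member. Over all tested genes 1 of 11440 passed (limma, Benjamini-Hochberg adjusted p below 0.05), which is 0.00874%, and it was the pseudogene Gm13597, lower in KO. None of the 8 tested members passed, none had an unadjusted limma p below 0.05 (3.15% of all tested genes had), and nothing was read from these counts because the members' values were known. In 7 of the 10 the difference was above 0 and in 3 below, and median-ratio scaling made this 5 and 5. Their median difference was +0.07, beside +0.09 over all tested genes, and for the 8 tested it was +0.11. Except for Fabp4, the difference between labels was smaller than the SD within them. Within pairs of one number, the KO library was the higher for 7, 4 and 5 of the 10 genes at numbers 1, 2 and 3. For Cfd the differences within pairs were -0.06, +0.69 and -0.47, far smaller than the spread between numbers. Plin4 was lower in the KO library of every pair (-0.32, -0.12 and -0.07) and Fabp4 higher (+0.46, +0.44 and +0.02), on the deposited scale. After median-ratio scaling this held for Plin4, while at number 3 Fabp4 was the lower in KO, at 13.6 beside 15.02.

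Leaving out single libraries turned the sign of several members. The difference of Cidec ran from -0.42 to +0.67 and that of Cd36 from -0.42 to +0.46 as each library was left out in turn, and both were below 0 without WT library 3 or KO library 1. For Cfd it ran from -1.16 without KO library 1 to +1.32 without WT library 1, and it was also below 0 without WT library 2 or 3. That of Pparg ran from -0.95 to +0.08, above 0 without WT library 2 or KO library 3, and that of Plin4 from -0.58 to +0.32, above 0 without WT library 1 or KO library 3. Vldlr ran from -0.34 to +0.13. Lpl, Fabp4, Mogat1 and Cidea kept a difference above 0 under every alternative that gave them a value. When single libraries were left out, Fabp4 ran from +0.17 to +0.39 and Lpl from +0.06 to +0.36. Mogat1 fell to +0.02 and Cidea to +0.001, both near 0.

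**Figure D4:**
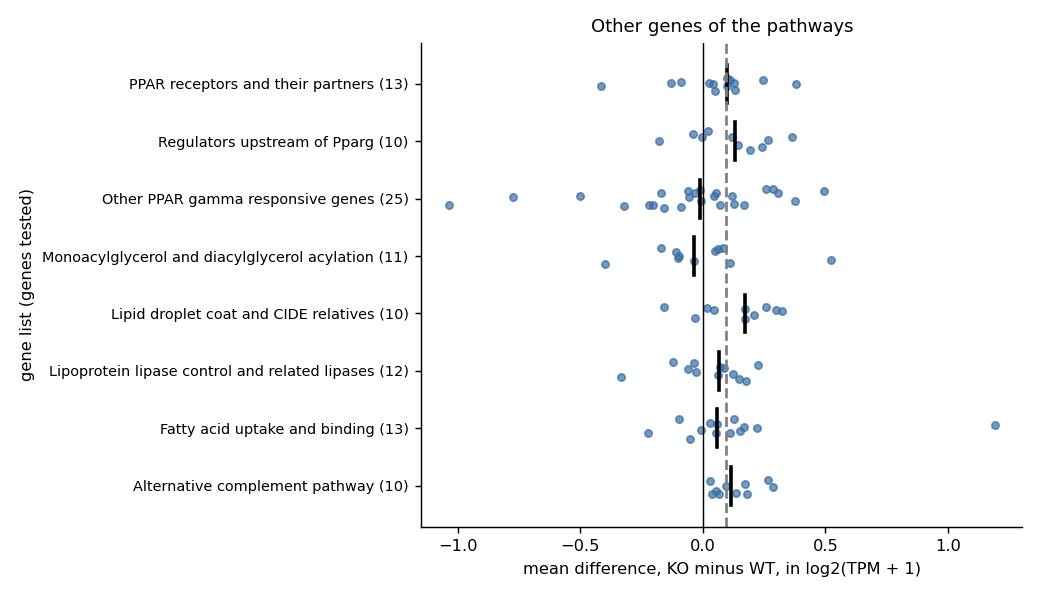
Each point is a tested gene of the named list, members left out, placed by its mean difference KO minus WT in log2(TPM + 1), with the vertical scatter only to separate points; thick bars are list medians and the dashed line the median of all tested genes. List medians ran from -0.04 (acylation) to +0.17 (droplet coat), or from -0.12 to +0.06 after median-ratio scaling, and none of the 97 distinct genes passed the test.

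In the 8 pathway lists together, 112 distinct genes were listed, 97 were tested, and none passed over all genes or had an unadjusted limma p below 0.05. Their median difference was +0.06. With the library number as a block in the fit, none passed and 7 had an unadjusted p below 0.05, where 6.18% of all tested genes had one. These were Nr2f2, Pnpla2, Lipe, Agpat1, Gpam, Hsd17b13 and Fabp5, named after their values were seen. Of the members, none had an unadjusted p below 0.05 under the block either.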

How the data were processed

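The authors deposited one table of TPM to 3 decimals for 6 libraries, scaled to the same total per library. The mm10 build and the tools featureCounts, HISAT2, limma, DESeq2 and fastp are named, without versions or roles, per the submitters' processing notes, and no source used here states the counting mode. TPM keeps no depth, so no count model, counting interval or floor was used, and an exact 0 is given as listed at 0. Symbols came from the GENCODE M21 gene names and coordinates from its annotation. Genes reaching 1 TPM in 3 or more libraries were tested by limma 3.58.1 (R 4.3.3, limma-trend on log2(TPM + 1), two-sided), adjusted over all tested genes, threshold 0.05. The limma step was tested on simulated data.

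The members and lists were chosen with earlier results of these data known. By rule, the named genes are the members, Epas1, the 3 most abundant genes of each pathway list, markers of the listed cell types, and the 5 genes with the highest correlation to Pparg, Cd36 and Cfd. Outside this rule, relatives and partners of members were named for their roles, and genes named for the order of library numbers or for an unadjusted p were chosen after their values were seen. One further list of genes is not reported here. No 2 libraries were duplicates (Spearman 0.945 to 0.978). Deviations from label means correlated at 0.16, 0.41 and 0.38 between same-numbered libraries and at -0.37 to 0.03 otherwise, so the numbers were treated as a possible pairing, from the data and not the labels, with the block as an alternative. Alternatives changed the pseudocount, filter, scaling, variance trend and block, or left out each library.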

Additional observations from a re-analysis of the deposited data

How the results depend on the processing

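No member was called under any of the 16 alternatives, and no pathway gene passed under them. The 1 gene called lower, Gm13597, gave way to 0 genes with a pseudocount of 5, with no filter, with a filter of 5 TPM, under quantile normalization and with the replicate block. With 1 library left out, 0 to 1 genes were called lower (Eif4a-ps4 alone, without KO replicate 2) and 0 to 2 higher (2, without WT replicate 2: Gm6361 and an unnamed gene). The median difference of the members ran from +0.0007 to +0.13 under the other settings and from -0.28 to +0.31 with 1 library left out, below 0 without WT replicate 3 or KO replicate 1. Median-ratio scaling turned the median differences of 3 pathway lists (receptors and partners, lipase control, uptake and binding) from above to below 0. Cd36 and Cfd turned below 0 under each of the 3 other scalings, to -0.06 and -0.007 under median-ratio scaling, and Cfd to -0.43 with a pseudocount of 0.1, which weights its low values, while Cidea moved to +0.31 there. Epas1 stayed above 0 throughout (+0.24 to +0.43). The replicate block changed no member's call. Read totals cannot be had from TPM, so no counting error is given for the low values of Cidea, Vldlr, Plin4 and Cfd.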

Other observations

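Few genes shared the pattern of Cfd, high in both libraries numbered 1, at any comparable size. After Cfd, Saa3 and Plin4, the next tested gene was Themis, a T cell signalling gene, at 2.43-fold by the ratio of the lower library numbered 1 to the highest of the other 4. Saa3, an inflammation-induced serum amyloid, was at 22.7, 7.28 and 4.69 TPM (WT) and 21.7, 8.02 and 8.004 TPM (KO), and Lcn2, the acute phase lipocalin, at 22.9, 9.02 and 4.12 TPM and at 21.1, 8.34 and 12.8 TPM. Lgals1, encoding galectin-1, was at 55.2, 30.9 and 12.7 TPM (WT) and 60.2, 22.4 and 9.81 TPM (KO). Gpd1, the glycerol-3-phosphate dehydrogenase that supplies triglyceride synthesis, was at 217, 77.2 and 115 TPM and at 204, 81.9 and 103 TPM. Vnn1, a pantetheinase induced by PPARα in liver, was at 45.4, 26.1 and 6.95 TPM and at 61.6, 17.2 and 16.0 TPM. By that ratio Lgals1, Gpd1, Vnn1 and Lcn2 ranked 13, 15, 18 and 25, at 1.78-, 1.77-, 1.74- and 1.65-fold. They were picked after their values were seen and not by rank. Higher-ranked genes were passed over, among them Phospho1 (rank 6, 2.02-fold), Orm2 (rank 7, 1.99-fold) and Serpina7 (rank 11, 1.91-fold). The named genes therefore do not show which kinds of gene share the pattern, and the libraries numbered 1 are described and not tested.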
